A study of Mus musculus with 12 samples.

Results

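The genes described here are 9 genes of the red cell lineage, measured in the outer ring (annulus fibrosus, AF) and the core (nucleus pulposus, NP) of the mouse lumbar disc. They are Slc4a1, Epb42, Rhag, Ermap, Alas2, Klf1, Hemgn, Ctse and Tmcc2. They were chosen by gene symbol, with earlier results of these data known. Each had 1 transcript cluster (the array's unit for a gene) on the Clariom S Mouse array, and together they are 9 of 22206 clusters tested. The samples were NP of TonEBP +/- mice, NP of wild-type (WT) mice, AF of TonEBP +/- mice and AF of WT mice, 3 of each. All mice were 12 months old on a C57BL/6 background, and each sample was tissue pooled from the discs L1 to S1 of 1 animal, per the labels. TonEBP, encoded by Nfat5, is a transcription factor of the response to osmotic stress, and TonEBP +/- mice are heterozygous for it. How the allele was made is not given in the labels, nor is it said whether an AF and an NP sample came from the same mouse. Values are the authors' log2 signals, so a difference of 1 is a 2-fold change.

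Red cells form in marrow from erythroblasts, which fill with heme and globin, build a specialised membrane skeleton and then lose their nucleus. Band 3 (Slc4a1) exchanges chloride for bicarbonate and anchors that skeleton, protein 4.2 (Epb42) binds band 3, and Rhag forms part of the Rh complex. Alas2 makes the first intermediate of heme in erythroid cells, and Klf1 is a transcription factor that switches on many red cell genes. The healthy disc is largely without blood vessels, and marrow lies next to it in the vertebral bodies. Only Alas2 of the 9 is a heme synthesis gene, and Klf1 and Hemgn encode nuclear proteins, so the genes are called erythroid genes below.

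The start sites of these genes share 1 short sequence that their selection did not use. The GATA factors of blood cells bind AGATAA or TGATAA, and 1 of these, on either strand, stood in the window from 250 bases before to 50 after a RefSeq start site (GRCm38.p6) of all 7 members found in the promoter table. These were Alas2, Rhag, Epb42, Hemgn, Klf1, Ermap and Tmcc2, the last in 1 of its 3 windows, so 7 of 9 windows held it, against 18.6% of all 32851 windows. A few of them are shown because they include the called gene with a window (Ermap), the heme gene (Alas2), the Rh gene (Rhag) and the window with 2 matches (Hemgn). They lie at chr4:119189946-119190245 and chr4:46404134-46404433 on the minus strand and at chr17:40810899-40811198 and chrX:150547167-150547466 on the plus strand, are printed 5′ to 3′ on the strand of the gene, and capitals mark the match (TTATCA and TTATCT are the reverse complements).
Ermap: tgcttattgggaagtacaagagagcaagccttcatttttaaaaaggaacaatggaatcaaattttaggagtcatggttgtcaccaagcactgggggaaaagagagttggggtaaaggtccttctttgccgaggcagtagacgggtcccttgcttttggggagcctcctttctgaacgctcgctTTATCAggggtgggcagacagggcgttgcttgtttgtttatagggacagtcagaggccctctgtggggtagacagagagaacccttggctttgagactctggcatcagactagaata
Rhag: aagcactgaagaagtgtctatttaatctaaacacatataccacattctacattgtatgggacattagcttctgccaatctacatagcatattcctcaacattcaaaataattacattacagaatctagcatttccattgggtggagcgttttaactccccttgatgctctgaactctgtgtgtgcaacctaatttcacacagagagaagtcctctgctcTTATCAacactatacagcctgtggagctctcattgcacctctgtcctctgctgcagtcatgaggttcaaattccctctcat
Alas2: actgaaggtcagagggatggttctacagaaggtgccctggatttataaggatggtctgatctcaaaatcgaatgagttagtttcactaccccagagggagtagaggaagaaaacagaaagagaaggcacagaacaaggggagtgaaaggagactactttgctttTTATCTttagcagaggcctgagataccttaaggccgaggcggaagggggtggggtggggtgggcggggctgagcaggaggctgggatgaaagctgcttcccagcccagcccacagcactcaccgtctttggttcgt
Hemgn: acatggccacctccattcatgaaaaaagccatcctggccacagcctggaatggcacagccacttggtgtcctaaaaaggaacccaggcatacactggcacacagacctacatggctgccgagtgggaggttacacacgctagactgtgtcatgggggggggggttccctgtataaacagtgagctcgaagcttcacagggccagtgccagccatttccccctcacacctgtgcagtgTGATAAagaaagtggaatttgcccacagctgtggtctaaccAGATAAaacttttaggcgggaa
Counted from the start site, with bases before it negative, the match began at -67 in Ermap, -31 in Rhag, -86 in Alas2, and -13 and 29 in Hemgn. It began at -80 in Klf1, -226 in Epb42 and -33 in Tmcc2. The sequence CCNCNCCC, which resembles the sites of Klf1, stood in windows of 3 of the 7 members and in 49.5% of all windows, and the E-box CAGNTG in windows of 4 members and in 51.4% of all windows; both were searched on both strands. A match is a string of letters, and binding was not measured.

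Some facts of the series bear on the values that follow. Array medians were 6.82 to 6.87 log2 in NP and 7.43 to 7.64 in AF, and precision is limited by having 3 arrays in a group. The background level of an array was the value that 95% of its 23 background probe sets stayed under, 7.11 to 7.33 log2 in NP and 7.73 to 7.98 in AF. AF array 3 of TonEBP +/- mice stood apart: its interquartile range was 3.11 log2, and that of the other AF arrays 2.36 to 2.66. AF array 1 of WT mice stood apart on the NP and notochord markers, whose summed signal was 18.20 log2 there, 14.41 and 13.66 on the other AF arrays of WT mice and 13.04 to 14.39 on AF arrays of TonEBP +/- mice. NP and notochord markers were higher in NP than in AF of WT mice for 6 of 7 measured genes (limma), so the NP label holds. Of 7 AF and tendon markers 4 were lower in NP and 2 higher, while 4 of the 7 were above background on each AF array. Tnmd among the lower and Scx among the higher were above background on no array of either tissue. Nfat5 itself was 0.50 log2 higher in NP (95% CI -0.35 to 1.36) and 0.09 higher in AF (-0.77 to 0.94) of TonEBP +/- mice, neither past the test (limma adjusted p = 1 and 0.923), and whether its probe lies in the altered part of the gene is not known.

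In the NP of TonEBP +/- mice all 9 erythroid genes read lower than in the NP of WT mice, and Ctse, Slc4a1 and Ermap passed the test over all clusters (limma, adjusted p under 0.05). For every one of the 9, all 3 TonEBP +/- arrays lay below all 3 WT arrays. The call was made for 0.113% of all clusters (25 of 22206, all lower), and the separation of the groups in that direction for 5.93% of all clusters. Because the 9 genes were chosen with earlier results of these data known, these shares are a description and not a test of the set. The median difference of the 9 genes was -1.78 log2, beside 0.01 for all clusters. With Rhag and Ermap held at the background level of TonEBP +/- arrays and with Hemgn and Klf1, below background in both groups, set to 0, the median was -1.35. The NP samples are bulk tissue, so fewer erythroid cells and less of each RNA per cell cannot be told apart.

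**Figure D1:**
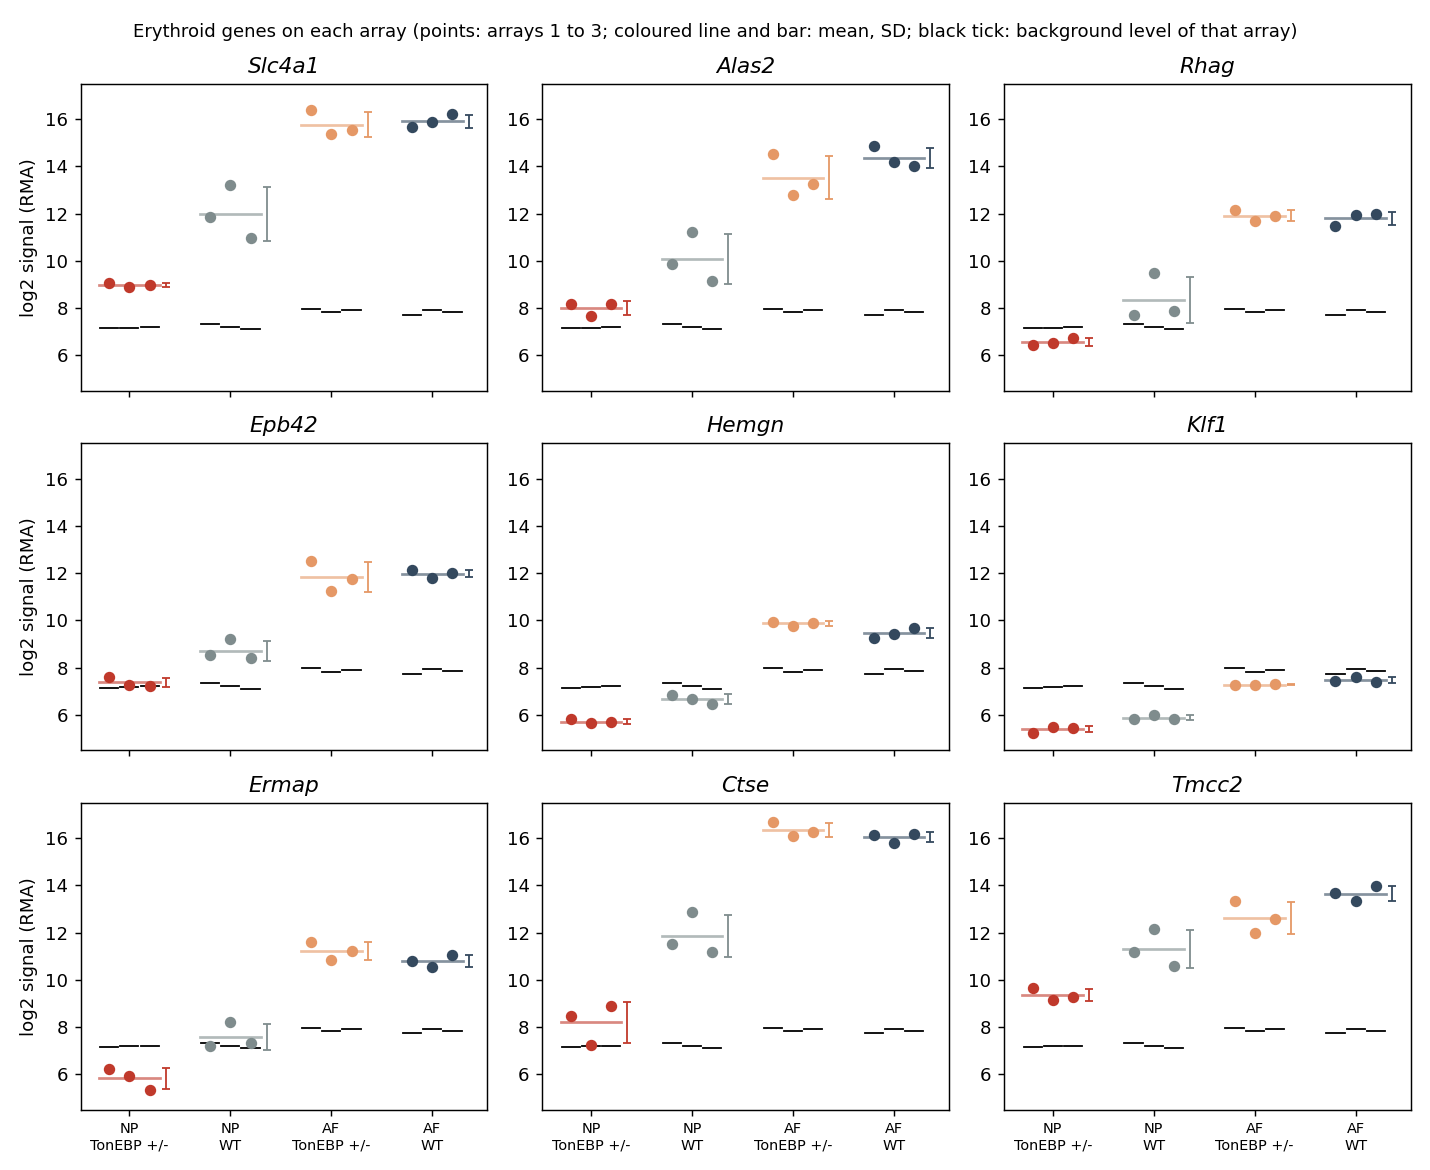
Log2 signal of the 9 erythroid genes (1 panel each) on the 12 arrays, in the order NP TonEBP +/-, NP WT, AF TonEBP +/- and AF WT. Points are arrays 1 to 3 of a group from left to right, the coloured line and the bar beside it are the group's mean and SD, and each black tick is the background level of that array. In every panel the 3 NP TonEBP +/- points lie below the 3 NP WT points, and within each genotype all NP points lie below all AF points.

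Among the membrane genes, Slc4a1 had log2 signals of 9.06, 8.89 and 8.96 in NP of TonEBP +/- mice, against 11.84, 13.21 and 10.95 in NP of WT mice. It fell 8.16-fold (log2 -3.03, SE 0.420, limma adjusted p = 0.0109). The TonEBP +/- arrays lay close together (SD 0.09) and the WT arrays spread more widely (SD 1.14). Without NP array 2 of TonEBP +/- mice the difference was -2.99 and did not pass (adjusted p = 0.0821).

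Ermap, an immunoglobulin-like protein of the erythroblast surface, had 6.21, 5.93 and 5.35 in NP of TonEBP +/- mice, none above background, against 7.18, 8.21 and 7.34 in NP of WT mice, 2 of 3 above background. It passed the test (adjusted p = 0.0401, limma), and against the background level it was at least 1.32-fold lower. This call was the weakest of the 3: it held in 6 of 18 alternative fits. Rhag had 6.42, 6.54 and 6.75, none above background, against 7.70, 9.47 and 7.86 in WT, all above it, which is at least 2.24-fold lower without passing the test (adjusted p = 0.0781). Epb42 had 7.60, 7.27 and 7.24, just above background, against 8.54, 9.20 and 8.42 in WT, a difference of -1.35 log2 (SE 0.301, adjusted p = 0.127). The groups of all 4 membrane genes were thus apart on every array, and 2 of the 4 passed.

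The heme gene Alas2 had 8.19, 7.67 and 8.18 in NP of TonEBP +/- mice, against 9.88, 11.23 and 9.13 in NP of WT mice. The difference was -2.06 log2 (95% CI -3.06 to -1.06) and did not pass over all clusters (limma adjusted p = 0.143). The highest TonEBP +/- array minus the lowest WT array, array 3, was -0.93. Without that WT array the difference was -2.53 and passed (adjusted p = 0.0278). Without WT array 2, the highest, it was -1.49 and did not pass (limma adjusted p = 0.96). Alas2 passed in 2 of 18 alternative fits.

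The nuclear genes could be read least well in NP. Hemgn, a nuclear protein of blood-forming cells, had 5.82, 5.64 and 5.68 in TonEBP +/- mice against 6.86, 6.67 and 6.46 in WT mice. Klf1 had 5.25, 5.49 and 5.43 in TonEBP +/- mice against 5.84, 6.00 and 5.81 in WT mice. All 6 NP arrays were below background for both genes, which leaves no measured change, although their groups did not overlap (limma adjusted p = 0.125 and 1).

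Ctse, the aspartic protease cathepsin E, which is found in red cells, in immune cells and in the stomach lining, had 8.45, 7.24 and 8.90 in NP of TonEBP +/- mice, against 11.50, 12.86 and 11.19 in NP of WT mice. It fell 12.6-fold (log2 -3.66, SE 0.417, limma adjusted p = 0.00383), the lowest of all 22206 differences in NP. It passed in 17 of 18 alternative fits, the exception being the fit to the NP arrays alone. Tmcc2, a transmembrane and coiled-coil protein, had 9.64, 9.16 and 9.26, against 11.19, 12.16 and 10.57 in WT, a difference of -1.96 log2 (SE 0.378) with adjusted p = 0.0656. Both genes were above background on all 6 NP arrays, Ctse by only 0.06 log2 on array 2 of TonEBP +/- mice. The 9 genes ranked from 1 (Ctse) and 6 (Slc4a1) to 1001 (Klf1) of 22206 when all NP differences were ordered from the lowest.

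The WT arrays of NP differed among themselves in the same order for most of the genes. NP array 2 of WT mice was the highest of the 3 for 8 of 9 genes, and array 3 the lowest for 7 of 9. For Slc4a1, array 3 minus the mean of arrays 1 and 2 was -1.58, and the highest TonEBP +/- array minus WT array 3 was -1.88. The mean over the 9 genes was 7.41, 7.09 and 7.30 log2 on the TonEBP +/- arrays, against 8.95, 9.89 and 8.64 on the WT arrays. Without WT array 3, 6 of 9 genes and 79 of all clusters were called. Without NP array 2 of TonEBP +/- mice, 1 of 9 genes, Ctse, and 2 of all clusters were called. With the NP arrays fitted alone, limma called 0 of 9 genes and 0 of all clusters, while 9 of 9 genes had an unadjusted p under 0.05 (limma). Ctse and Slc4a1 then had adjusted p = 0.123 each by limma. In the fit to all 12 arrays, an unadjusted limma p under 0.05 was found for 9 of 9 genes and for 827 of 22206 clusters.

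In the AF no erythroid gene passed the test between genotypes, and the differences went in both directions. Limma called 0 of 9 genes, where it called 6.07% of all clusters (612 higher and 735 lower, or 713 and 563 with array medians subtracted). An unadjusted limma p under 0.05 was found for 1 of 9, Tmcc2, and for 5158 of all 22206 clusters. The groups did not overlap for 2 of the 9, Hemgn upwards and Klf1 downwards, and for 22.3% of all clusters. The median difference was -0.12 log2, beside -0.04 for all clusters. Without AF array 3 of TonEBP +/- mice it was -0.03 with 81 clusters called, and without AF array 1 of WT mice -0.06 with 463 clusters called, and 0 of 9 genes passed in both fits (limma).

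Some tissue markers on the AF arrays did differ with genotype. Of 7 AF and tendon genes, the type I collagen genes Col1a1 and Col1a2 were 4.18 and 3.70 log2 higher in AF of TonEBP +/- mice, Lum (lumican) was 1.62 higher and Fmod (fibromodulin) fell by 2.11 (limma adjusted p = 0.00772, 0.0153, 0.0176 and 0.00451). Of 7 NP and notochord genes, Krt19, a keratin, fell by 2.19 (adjusted p = 0.0476). It had 7.00, 6.25 and 8.08 in AF of TonEBP +/- mice against 11.37, 8.26 and 8.27 in WT mice, highest on the WT array that stood apart. The part of the tissue dissected in the AF values of the erythroid genes was not tested.

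Slc4a1 had 16.38, 15.37 and 15.54 in AF of TonEBP +/- mice, against 15.65, 15.87 and 16.20 in AF of WT mice. Ctse had 16.66, 16.08 and 16.24, against 16.13, 15.78 and 16.16 in WT. The 95% CI of the difference was -1.04 to 0.75 for Slc4a1 and -0.58 to 1.19 for Ctse, so neither interval reaches the differences of -3.03 and -3.66 seen in NP.

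Rhag had 12.15, 11.68 and 11.89 in AF of TonEBP +/- mice against 11.49, 11.96 and 11.97 in WT mice (difference 0.10, 95% CI -0.67 to 0.86). Epb42 had 12.53, 11.26 and 11.75 against 12.11, 11.81 and 11.99 in WT (-0.12, 95% CI -0.76 to 0.51). Ermap had 11.60, 10.84 and 11.23 against 10.79, 10.55 and 11.05 in WT (0.43, 95% CI -0.23 to 1.08). The groups of these 3 membrane genes overlapped.

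Alas2 had 14.53, 12.79 and 13.25 in AF of TonEBP +/- mice against 14.85, 14.20 and 14.03 in WT mice, and Tmcc2 had 13.34, 11.98 and 12.56 against 13.67, 13.32 and 13.95 in WT. These 2 had the lowest AF differences, -0.84 (SE 0.471, limma adjusted p = 0.307) and -1.02 (SE 0.378, adjusted p = 0.115). Hemgn had 9.95, 9.77 and 9.89 against 9.27, 9.43 and 9.68 in WT, a difference of 0.41 (SE 0.210, adjusted p = 0.264). Klf1 had 7.27, 7.26 and 7.30 against 7.43, 7.61 and 7.38 in WT, below background on every AF array, so it was above background on none of the 12 arrays. AF array 2 of TonEBP +/- mice was the lowest of its group for all 9 genes and array 1 the highest for 8. Without array 2 the median difference of the 9 genes was 0.17, and the signs of Slc4a1 (0.05) and Epb42 (0.17) turned.

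**Figure D2:**
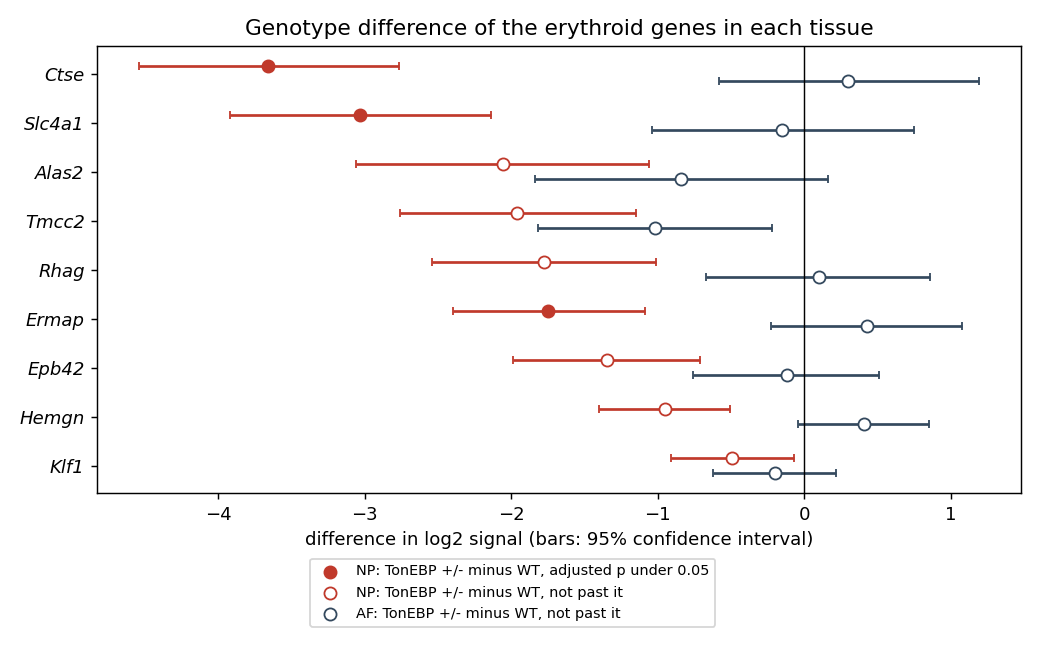
Difference in log2 signal between TonEBP +/- and WT mice for each erythroid gene, in NP (red) and AF (blue), with the 95% confidence interval of the limma fit. Filled points passed the test over all clusters (Ctse, Slc4a1 and Ermap in NP), open points did not. The NP values of Hemgn and Klf1 come from signals below background in both groups, and those of Rhag and Ermap from TonEBP +/- signals below it.

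The genotype difference itself was set against the other tissue with an interaction term. The difference in NP was more negative than that in AF for all 9 genes and passed for 4: Ctse (-3.96 log2, SE 0.590, adjusted p = 0.0109), Slc4a1 (-2.88, SE 0.594, 0.0331), Ermap (-2.17, SE 0.436, 0.0308) and Hemgn (-1.36, SE 0.297, 0.0421), all by limma. The same call was made for 0.766% of all clusters. The NP term of Hemgn lies below background in both groups, and that of Ermap does in TonEBP +/- mice. Ctse passed in all 17 alternative fits, Ermap in 8, Slc4a1 in 6 and Hemgn in 5, with adjusted p of 0.103, 0.095 and 0.127 at most for Slc4a1, Ermap and Hemgn. Without AF array 3 of TonEBP +/- mice 1 gene (Ctse) and 85 of all clusters, in either direction, passed. Without AF array 1 of WT mice 2 genes (Ctse and Ermap) and 273 of all clusters did. For Alas2 and Tmcc2, whose AF differences were also negative, it was -1.22 (95% CI -2.64 to 0.19) and -0.94 (95% CI -2.07 to 0.20).

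Between the tissues, the erythroid genes were lower in NP than in AF in both genotypes. All 9 passed in TonEBP +/- mice and all 9 in WT mice (limma), where 54.4% and 56.1% of all clusters were lower in NP. With array medians subtracted, 6854 clusters were higher and 5624 lower in TonEBP +/- mice and 7473 higher and 6950 lower in WT mice, against 4437 and 12073, and 4921 and 12466, as deposited. The scale of the arrays moves this comparison: the median of all clusters was -0.75 in TonEBP +/- mice and -0.84 in WT mice, and the median of the 9 genes -5.34 and -3.25. With each array's median subtracted, the medians of the 9 were -4.65 in TonEBP +/- mice and -2.51 in WT mice, and all 9 still passed in both. With genes that have only a bound held at it and Klf1, below background in both tissues, at 0, the medians as deposited were -4.48 and -3.25.

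Slc4a1 differed between NP and AF by -6.79 log2 in TonEBP +/- mice (SE 0.420, 111-fold lower) and by -3.91 in WT mice (15-fold). Ctse differed by -8.13 (280-fold) in TonEBP +/- mice and by -4.17 (18-fold) in WT mice. Alas2 was 45.5-fold lower in NP than in AF of TonEBP +/- mice and 19.5-fold lower in WT mice, and Epb42 22.3-fold and 9.53-fold. Tmcc2 differed least among the genes read in all 4 groups, at 9.68-fold in TonEBP +/- mice and 5.06-fold in WT mice. Hemgn was at least 6.44-fold lower in TonEBP +/- mice and at least 4.74-fold lower in WT mice, and Rhag and Ermap at least 26.5-fold and 16.5-fold lower in TonEBP +/- mice. These comparisons share their NP arrays with the genotype comparison in NP and are not separate evidence of it.

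**Figure D3:**
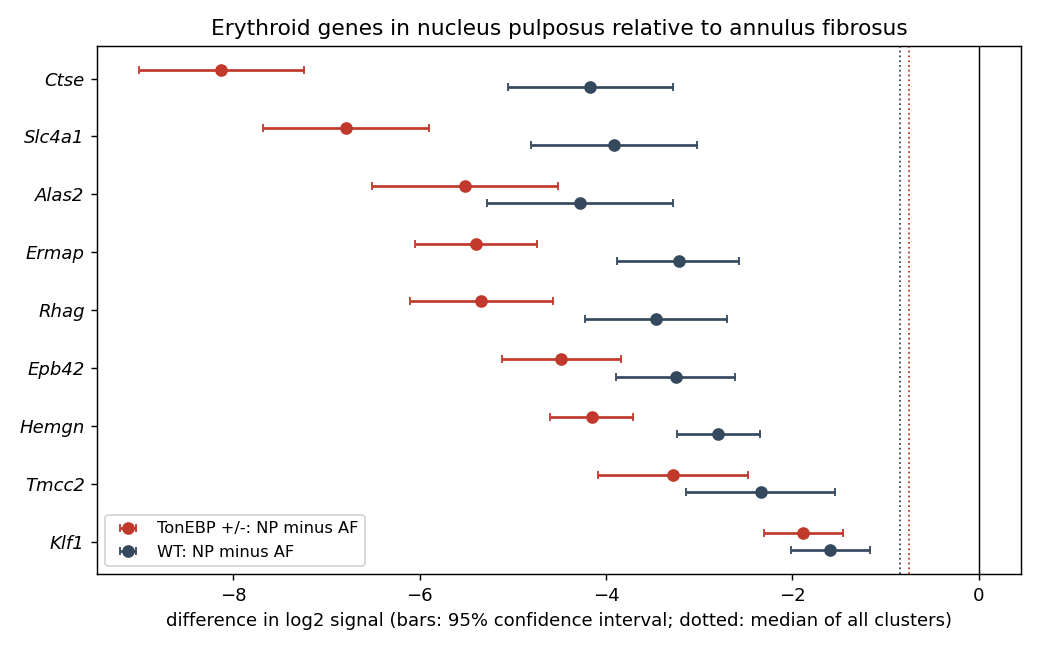
Difference in log2 signal between NP and AF for each erythroid gene in TonEBP +/- mice (red) and WT mice (blue), with 95% confidence intervals. Dotted lines mark the median of all clusters (-0.75 and -0.84). Every gene lies to the left of these lines in both genotypes, and further left in TonEBP +/- than in WT mice.

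Other genes of the red cell were read from lists, and few of them passed. Of 9 red cell enzymes, 1 fell in NP of TonEBP +/- mice and all 9 were below 0 (median -0.54). The gene that fell was Car2, carbonic anhydrase 2, which hydrates carbon dioxide: it had 12.16, 11.23 and 11.37 in NP of TonEBP +/- mice, against 13.46, 14.10 and 12.80 in WT mice (log2 -1.87, SE 0.326, limma adjusted p = 0.0382). In AF it differed by -0.17 (adjusted p = 0.80). Car2 is also made by osteoclasts and other cells.

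Of 18 heme synthesis and iron supply genes, 0 passed in NP (limma; median -0.13) and, beside 5.93% of all clusters, the groups were apart downwards for 2. These were Slc25a37 (mitoferrin 1, which carries iron into mitochondria), with -1.91 (adjusted p = 0.0656), and Fech (ferrochelatase, the last enzyme of heme synthesis), with -0.97 (adjusted p = 1); Fech is named here after its values were seen. Alas1, the form of the first enzyme found in all tissues, differed by -0.28 in NP (adjusted p = 1), and in AF it rose by 1.56 log2 (SE 0.402, limma adjusted p = 0.0343). Its AF values were 11.80, 11.98 and 13.83 in TonEBP +/- mice against 10.89, 11.04 and 11.00 in WT mice, the highest on the AF array that stood apart. Alas1 thus passed in AF, where the erythroid form Alas2 was at -0.84 and did not.

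Of 15 other red cell membrane genes, 0 passed in NP and 14 were below 0 (limma; median -0.55). For 11 the groups were apart downwards, beside 5.93% of all clusters. Many of these signals were below background in NP: 5 of the 15 genes were above it on TonEBP +/- arrays and 6 to 10 on WT arrays. The 4 with the highest mean signal were Slc2a1, the glucose transporter (-0.07), Cd47, a signal against phagocytosis (-0.34), Stom, stomatin (-0.87), and Mpp1, a membrane scaffold (-0.28), each with adjusted p = 1. Slc2a1 was 6.49 log2 higher in NP than in AF of WT mice, opposite in direction to the erythroid genes. Of 14 erythroid regulators, 0 passed in NP and 12 were below 0 (limma; median -0.50), with groups apart downwards for 9, beside 5.93% of all clusters. Most of the 14 could not be read in NP: 2 were above background on TonEBP +/- arrays and 3 or 4 on WT arrays. Gfi1b, a repressor in erythroid and platelet precursors, was at -1.15 (adjusted p = 0.143) and Ldb1, a cofactor, at -0.04. Myb, a factor of blood progenitors, had 6.25, 5.77 and 6.68 in TonEBP +/- mice, none above background, against 7.81, 8.40 and 8.19 in WT mice (adjusted p = 0.0947), and Trim10 was above background on 0 of 3 and 1 of 3 arrays. Gata1, named after its values were seen, was above background on no NP array and on all 6 AF arrays. In AF 0 of 15 and 0 of 14 passed by limma, with medians of 0.10 for the membrane genes and 0.13 for the regulators.

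The adult globin genes of the list were not analysed here. The other 5 globins, Hba-x, Hbb-y, Hbb-bh1, Hbq1a and Hbq1b, were above background on no NP array, and 0 passed in either tissue (limma).

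**Figure D4:**
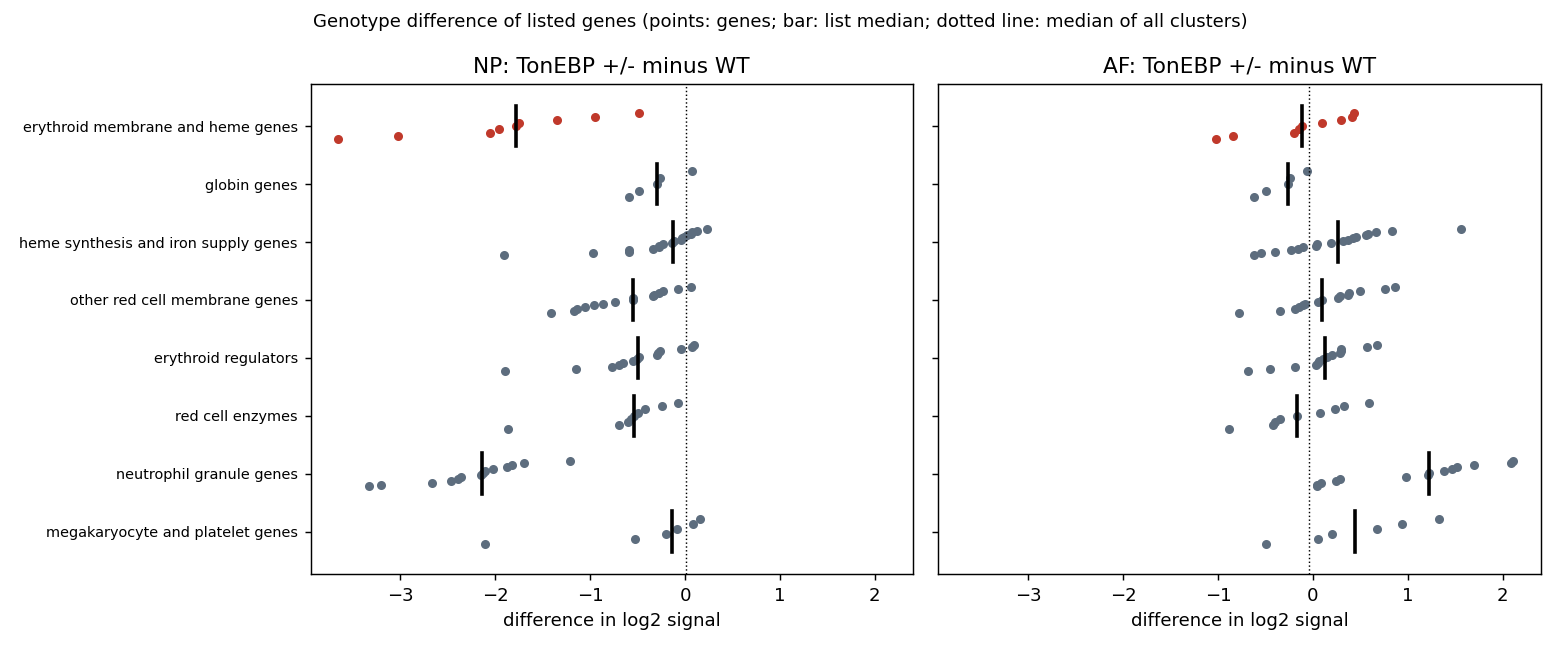
Difference in log2 signal between TonEBP +/- and WT mice in NP (left) and AF (right) for the genes of 8 lists, 1 point per gene. Bars are list medians and the dotted line is the median of all clusters. In NP the medians of the erythroid genes (-1.78) and the neutrophil granule genes (-2.14) lie lowest, and in AF they are -0.12 and 1.22.

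Markers of other marrow cells were read beside the erythroid genes. Of 14 neutrophil granule genes, 3 fell in NP of TonEBP +/- mice (limma; Mpo, Elane and Ctsg), all 14 were below 0 and the median was -2.14. Mpo, myeloperoxidase, had 10.26, 8.82 and 11.11 in TonEBP +/- mice against 13.26, 13.87 and 13.05 in WT mice (log2 -3.33, adjusted p = 0.0079), and Elane, neutrophil elastase, was at -3.21 (adjusted p = 0.0274). The summed signal of the 14 genes was 14.86 to 17.54 log2 on TonEBP +/- arrays and 17.70 to 19.35 on WT arrays, beside 10.82 to 11.24 and 12.83 to 14.65 for the 9 erythroid genes. On TonEBP +/- arrays 10 or 11 of the 14 were above background, against 14 on each WT array. NP array 2 of TonEBP +/- mice was lowest for both sums, and NP arrays 2 and 3 of WT mice were the highest and the lowest of WT for both. The part of these cells in the fall of the erythroid genes was not tested.

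In AF the lists went apart. The neutrophil genes had 3 of 14 higher in TonEBP +/- mice (Ctsg, Prtn3 and Camp; limma), a median of 1.22 and a summed signal of 22.37 to 22.65 log2 against 22.12 to 22.29 in WT mice. The erythroid genes had 0 of 9, a median of -0.12 and a summed signal of 17.00 to 17.86 against 17.24 to 17.55. Ngp and Lcn2 of the neutrophil list equalled the highest signal of the array on every AF array. S100a8 and S100a9 lay at or near it. These genes could show little or no further rise, and they carry much of the neutrophil sum in AF. The sum therefore cannot give the size of the genotype difference of the neutrophil genes. The difference between the lists was not tested.

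Of 6 megakaryocyte and platelet genes, 0 passed in NP or AF (limma; medians -0.14 and 0.44): Itga2b, an integrin chain of platelets, was at 0.16 in NP, while Pf4, Gp9 and Ppbp were above background on 0 of 3 TonEBP +/- arrays and on 0, 1 and 1 of 3 WT arrays. Of 11 macrophage genes 0 passed in NP (limma; median -0.14) and 3 were higher in AF, namely Csf1r, Vcam1 and the iron exporter Slc40a1 (0.99, adjusted p = 0.0362). The B cell and endothelial lists had 0 of 6 and 0 of 6 called in NP, with 0 or 1 of each list's genes above background on any NP array. In AF, Jchain of the B cell list and Kdr of the endothelial list were higher, Jchain by 1.67 log2 and Kdr from signals above background on 3 of 3 TonEBP +/- arrays and 0 of 3 WT arrays.

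The clusters most like the erythroid genes were sought over the 12 arrays, with each tissue's mean subtracted, among 9244 other named clusters above background on at least 6 arrays. By Pearson correlation with the mean of the 9 genes they were Nxpe2 (0.972), Car2 (0.962), Ube2l6, a conjugating enzyme of ubiquitin and ISG15 (0.957), Slc25a37 (0.935) and Add2, beta adducin of the red cell membrane skeleton (0.935). These values describe 12 arrays, of which the 3 of a group share their tissue and genotype. Each of the 9 erythroid genes correlated with the mean of the other 8 at 0.793 (Hemgn) to 0.987 (Slc4a1) on the same scale. The genotype difference in NP enters this correlation, so the NP differences of these clusters follow from how they were chosen and are given as a description: -2.71 log2 for Nxpe2, -1.87 for Car2 and -1.91 for Slc25a37. Ube2l6 averaged 6.03 in TonEBP +/- mice, under the background levels, against 9.19 in WT mice, and Add2 was above background on no NP array.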

How the data were processed

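RNA was measured on 12 Clariom S Mouse arrays. The authors deposited log2 signals for each probe set. Affymetrix Expression Console and RMA are named in the submitters' processing notes; settings, and the arrays that entered 1 normalization, are not given in the sources used here. RMA equalizes signal distributions among arrays normalized together and compresses differences near background. The deposited distributions were not equal over the 12 arrays: medians were 6.82 to 6.87 log2 in NP and 7.43 to 7.64 in AF. Of 28846 probe sets, 22206 clusters were tested, 19572 with a symbol; 6640 controls were left out. Symbols came from the array's gene table. No 2 arrays were duplicates (smallest SD of a difference 0.414 log2).

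In R 4.3.3, limma 3.58.1 fitted a mean per group to all 12 arrays (8 residual and 7.93 prior degrees of freedom, eBayes without trend), with Benjamini-Hochberg adjustment over all clusters and calls at an adjusted p under 0.05. The fit was tested on simulated data. A group above background on 0 of 3 arrays was held at its arrays' background level and the difference given as a bound, or not given where both groups were so. The members and lists were chosen with earlier results of these data known. Genes named are the members, list genes called between genotypes, otherwise the 4 of highest mean, and the 5 most like clusters. Promoters came from RefSeq (GRCm38.p6). Alternatives were other scalings, a trend, array weights, a filter on dim clusters, 1 tissue alone and leaving out each array. Figures used Python 3.11.15 and matplotlib 3.10.9.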

Additional observations from a re-analysis of the deposited data

Results flagged for a closer look

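For 4 erythroid genes the genotype difference itself differed between the tissues by the interaction term (limma, 3 arrays per group). The NP difference minus the AF difference was -3.96 log2 for Ctse, -2.88 for Slc4a1, -2.17 for Ermap and -1.36 for Hemgn. Only Ctse kept this call in all 17 alternative fits, and Hemgn was below background on all 6 NP arrays.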

How the results depend on the processing

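All 9 erythroid genes kept a negative difference in NP in every alternative that tested them. These were 18, or 17 for Klf1, which the filter on dim clusters left out. The NP groups of these genes did not overlap, so only the other scalings could have turned this sign. The tissue calls held in every alternative that tested them. With array medians subtracted, 13 clusters were called in NP, and the members' median between NP and AF was -4.65 in TonEBP +/- mice and -2.51 in WT mice. With quantile normalization the interaction was called for 1 gene, the WT tissue median was -3.68, 10866 clusters differed between tissues in TonEBP +/- mice, and Rhag (-0.15) and Ctse (-0.31) turned sign in AF. With array weights 8 genes and 81 clusters were called in NP, 2 and 7187 in AF (median 0.41), and 8 and 2503 for the interaction (median -2.01), and Slc4a1 (0.41), Alas2 (0.19) and Epb42 (0.54) turned sign in AF; there AF array 1 of TonEBP +/- mice carried far more weight than any other array. With dim clusters left out, fewer clusters were tested, and 8694 differed between tissues in TonEBP +/- mice and 9023 in WT mice. With NP alone limma called 0 genes and 0 clusters, and with AF alone 3 clusters. Leaving out each array gave 1 to 6 genes and 2 to 79 clusters called in NP, 81 to 4029 clusters in AF (median of the genes -0.20 to 0.17), and 1 to 6 genes and 22 to 1319 clusters for the interaction (median -1.70 to -1.31). The tissue median in TonEBP +/- mice was then -5.45 to -5.00. In AF, Slc4a1 ranged from -0.45 to 0.05, Rhag from -0.06 to 0.21 and Epb42 from -0.47 to 0.17. Apart from fewer clusters or arrays, the cause was not tested. Each erythroid gene has 1 cluster, so a second probe set gave no value. No paired analysis was possible because the labels carry no replicate numbers shared between groups. Signals near background limit Hemgn, Klf1, Ermap and Rhag in NP, and in NP of TonEBP +/- mice also Epb42, and Ctse on array 2.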
